A study of Mus musculus with 7 samples.

Results

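Genes of the spliceosome and its partner splicing factors were examined as 1 set in CD45+CD11b+ cells from the spleens of mice treated with a ROCK1/2-inhibitor or with vehicle. The set holds the 76 genes whose symbol on the array's annotation starts with Prpf, Sf3a, Sf3b, Srsf or Lsm followed by a digit, or with Snrp, U2af or Hnrnp. Each is measured by 1 transcript cluster, the array's unit for a gene, so the set takes 76 of the 22139 transcript clusters tested and 76 of the 19494 genes named. The rule reads the symbol only and no measured value. It spans 7 families, of 11 Snrp, 13 Lsm, 2 U2af, 9 Sf3a and Sf3b, 12 Prpf, 10 Srsf and 19 Hnrnp genes. A few members are not parts of the spliceosome by known function: Lsm10 and Lsm11 belong to the U7 particle that cuts histone transcripts, Lsm1, Lsm12, Lsm14a and Lsm14b act on RNA outside splicing, and Hnrnpa1l2-ps2 is a pseudogene.

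All recipients were BALB/cAnN mice that were irradiated with 2 rounds of 5 Gy and given bone marrow and T cells from C57BL6/N donors, the allo-HCT model of acute graft-versus-host disease. All animals were wild type, with no age in the labels. From day 4 to day 13 the inhibitor group (R1 to R4, n = 4 mice) received 10 intraperitoneal injections of 100 µl of the ROCK1/2-inhibitor at 8 mg/kg, which the methods name as Y-27632, and the vehicle group (V2 to V4, n = 3 mice) received the same volume of PBS. Cells were sorted on day 14, and RNA of each mouse was hybridised to 1 Clariom S Mouse array. Y-27632 inhibits both ROCK isoforms, so the comparison cannot assign a difference to ROCK1 or to ROCK2, and it has no arm without transplantation.

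In the spliceosome, small nuclear ribonucleoproteins (snRNPs) built around the U1, U2, U4, U5 and U6 RNAs recognise the ends of an intron and remove it. Sm proteins form a ring on most of these RNAs, and the related Lsm ring binds U6. U2AF and the SF3A and SF3B complexes define the 3′ splice site and the branch point, PRPF proteins assemble and activate the machine, and SR and hnRNP proteins bind the transcript and steer exon choice. Myeloid cells use changes in splicing while they mature, and intron retention in particular is known from granulocyte development. The arrays read 1 value per gene, so they measure the abundance of the transcripts that encode splicing proteins and not splicing itself.

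Few of the splicing genes differed past the test between inhibitor and vehicle, and all that did were higher with the inhibitor. Of the 76 genes, 3 rose and 0 fell (limma, Benjamini-Hochberg adjusted p under 0.05 over all 22139 transcript clusters). The genes that rose were Prpf39, a partner of the U1 snRNP, Snrpb2, the B″ protein of the U2 snRNP, and Snrpe, a subunit of the Sm ring. The share called was 3.95% of the members, against 2.23% of all transcript clusters, of which 1.06% rose and 1.17% fell. Most members are bright on the array, however: 64 of the 76 lie in the brightest 25% of all transcript clusters, where the share called was 7.7%, against 4.69% of those 64 members. With only 3 genes called, the shares cannot place the members above or below either background.

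Over the whole set the fold changes leaned to the higher side. The log2 fold change, inhibitor minus vehicle, was above 0 for 48 members and below 0 for 28. Its median was 0.18 (quartiles -0.09 to 0.58), beside 0.00 over all transcript clusters and -0.01 over the brightest 25%. Without the mouse V2 the members' median was 0.07 and without V4 it was 0.33. A log2 fold change above 0.5 was found for 23 members (30.3%) and one below -0.5 for 6 (7.89%), where the brightest 25% of transcript clusters had 22.2% and 22.5%. At an unadjusted p under 0.05, 21 members were higher and 6 lower, together 35.5% of the members, against 15.3% of all transcript clusters and 38.8% of the brightest 25%. The inhibitor and vehicle values did not overlap for 12 members that were higher (15.8%) and for 1 that was lower (1.32%). The corresponding shares were 6.22% higher and 7.03% lower over all transcript clusters, and 12.5% and 14.9% over the brightest 25%. These counts are descriptions, and no test was made of the set as a whole.

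**Figure D1:**
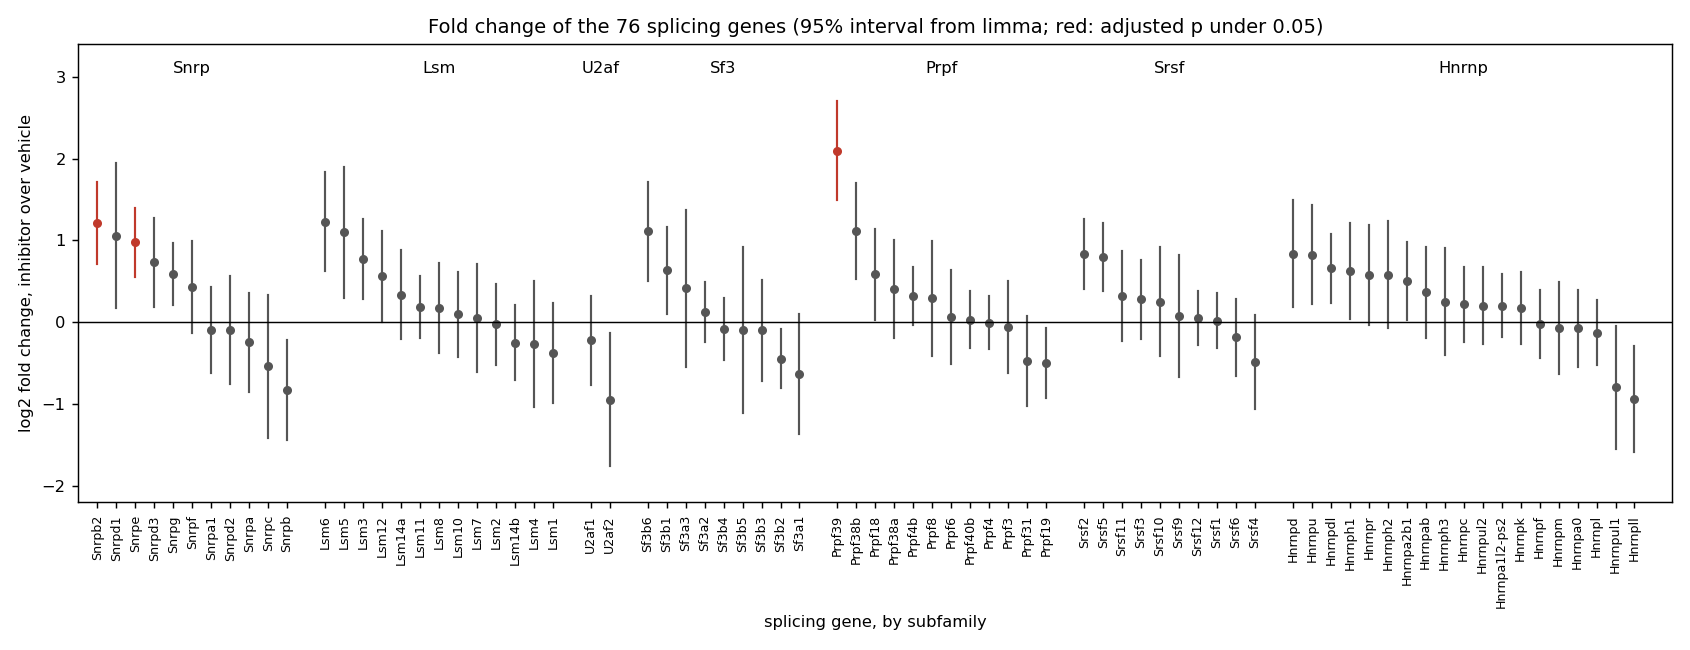
Log2 fold change (inhibitor minus vehicle) of each of the 76 splicing genes with its 95% confidence interval from limma, grouped by family. Prpf39, Snrpb2 and Snrpe are the 3 genes past the threshold, and the estimates range from -0.94 for U2af2 to 2.10 for Prpf39.

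Prpf39 had the highest fold change of the set. Its homologue in yeast is a structural subunit of the U1 snRNP, and in mammals it is a loosely bound U1 partner that influences alternative splicing. Its log2 intensity (TC1200000524.mm.2) was 5.82, 6.44, 6.63 and 6.43 in R1 to R4 and 3.93, 3.96 and 4.82 in V2 to V4. All inhibitor mice lay above all vehicle mice, and V4 was the vehicle mouse nearest to them. The means were 6.33 ± 0.35 (SD, n = 4) and 4.23 ± 0.50 (SD, n = 3), a log2 fold change of 2.10 (SE 0.27) or 4.27-fold, with a limma adjusted p of 0.0178.

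Snrpb2 encodes the U2 protein B″, which binds a stem-loop of the U2 RNA together with the Snrpa1 product A′. Its log2 intensity (TC0200002127.mm.2) was 6.75, 6.17, 6.10 and 5.95 in R1 to R4 and 4.85, 4.89 and 5.36 in V2 to V4. The groups were again separate, and the gene was 2.31-fold higher with the inhibitor (log2 fold change 1.21, SE 0.22, limma adjusted p = 0.0319). Snrpe encodes the Sm protein E, a subunit shared by the U1, U2, U4 and U5 particles. It measured 6.86, 6.38, 6.63 and 6.80 in R1 to R4 and 5.60, 5.47 and 6.00 in V2 to V4 (TC0100003092.mm.2). The 4 inhibitor values lay within a narrow band above the vehicle values, a 1.97-fold difference (log2 fold change 0.98, SE 0.19, limma adjusted p = 0.0371).

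The calls for these 3 genes depended on single mice, as did calls over the whole array. Their separate groups add nothing to the test that picked them. Each call held without R1 or without V4, in fits that called 4.68% and 2.41% of all transcript clusters. Without R2, R3, R4, V2 or V3 the adjusted p rose to between 0.053 and 0.074 for Prpf39, between 0.061 and 0.129 for Snrpb2 and between 0.059 and 0.137 for Snrpe, so that none of the 3 passed. Those fits called 2 to 34 of all 22139 transcript clusters, so the loss of calls was not particular to these genes. Over all 7 fits that left out 1 mouse, the log2 fold changes of Prpf39, Snrpb2 and Snrpe kept their direction. They ranged from 1.94 to 2.39, from 1.04 to 1.37 and from 0.87 to 1.13.

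The 250 bases upstream of the annotated transcription starts of these 3 genes are shown because they are the members that rose together. They are from RefSeq (mouse assembly GRCm38.p6) and are written 5′ to 3′ along the gene, with matches to 6 short promoter motifs in capitals. The windows are chr12:65036084-65036333 (plus strand) for Prpf39, chr2:143062819-143063068 (plus strand) for Snrpb2 and chr1:133610281-133610530 (minus strand) for Snrpe.
Prpf39: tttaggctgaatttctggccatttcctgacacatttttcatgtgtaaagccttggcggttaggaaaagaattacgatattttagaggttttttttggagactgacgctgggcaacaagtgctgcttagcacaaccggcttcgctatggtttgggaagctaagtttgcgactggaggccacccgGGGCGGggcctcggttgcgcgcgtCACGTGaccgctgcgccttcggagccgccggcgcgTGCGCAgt
Snrpb2: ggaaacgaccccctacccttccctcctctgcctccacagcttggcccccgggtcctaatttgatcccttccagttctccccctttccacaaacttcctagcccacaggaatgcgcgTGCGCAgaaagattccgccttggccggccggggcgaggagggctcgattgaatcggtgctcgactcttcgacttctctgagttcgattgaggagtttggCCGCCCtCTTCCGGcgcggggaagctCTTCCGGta
Snrpe: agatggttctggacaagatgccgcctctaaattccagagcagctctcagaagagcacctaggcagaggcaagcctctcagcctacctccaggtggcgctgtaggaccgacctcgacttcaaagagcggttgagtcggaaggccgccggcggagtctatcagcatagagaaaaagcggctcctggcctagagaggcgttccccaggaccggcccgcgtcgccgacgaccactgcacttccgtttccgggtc
The motifs, searched on both strands, were the ETS core CCGGAAG, the E-box CACGTG, the CCAAT box CCAAT, the GC box GGGCGG, the TATA box TATAAA and the NRF1 half-site TGCGCA. The Prpf39 window holds 1 E-box, 1 GC box and 1 NRF1 half-site. The Snrpb2 window holds 2 ETS cores next to the start, 1 GC box and 1 NRF1 half-site, and the Snrpe window holds no match. Windows were given for 65 of the 76 members and for 15683 measured genes in all. The ETS core was in 26.2% of the members' windows and in 9.42% of all, and the NRF1 half-site in 27.7% and 8.56%. The GC box was in 64.6% and 44.5%, the CCAAT box in 46.2% and 36.0%, the E-box in 6.15% and 6.87% and the TATA box in 9.23% and 12.2%. The members' windows had a median GC content of 60.4%, against 56% for all measured genes, and a match is only a match of letters.

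Among the Snrp genes, the 7 subunits of the Sm ring (Snrpb, Snrpd1, Snrpd2, Snrpd3, Snrpe, Snrpf and Snrpg) did not move as a unit. Snrpe rose, and the values of Snrpg (log2 fold change 0.59, adjusted p = 0.109) and Snrpd3 (0.73, adjusted p = 0.169) were separate between the groups without passing the test. Snrpd1 measured 6.00, 5.26, 5.77 and 6.03 in R1 to R4 and 3.62, 5.37 and 5.13 in V2 to V4. V2 was far below the other mice, and the log2 fold change was 1.06 (SE 0.39, adjusted p = 0.224). Snrpb, which encodes the Sm protein B, had the opposite sign. It measured 5.21, 4.24, 4.29 and 4.22 in R1 to R4 and 5.18, 5.70 and 5.08 in V2 to V4, a log2 fold change of -0.83 (SE 0.27, adjusted p = 0.168). R2, R3 and R4 were close together below all vehicle mice, and R1 lay among the vehicle values. Without R1 the log2 fold change of Snrpb was -1.07 and its adjusted p was 0.0220. That fit called 4.68% of all transcript clusters, against 2.23% with every array. Without R2, R3 or R4 the adjusted p of Snrpb was 0.320, 0.333 and 0.330. Snrpd2 (-0.09) and Snrpf (0.43) overlapped between the groups. The median over the Sm ring was 0.59.

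The other 4 Snrp genes encode U1 and U2 proteins, and Snrpb2 was the only one of them past the test. Snrpa1, whose product A′ partners B″, had a log2 fold change of -0.09 (SE 0.23). Snrpa, which encodes the A protein of U1, had -0.24 (SE 0.27) and Snrpc, which encodes the U1 protein that contacts the 5′ splice site, had -0.54 (SE 0.39). For Snrpc the vehicle mice spread from 3.20 in V2 to 4.97 in V3, and of the inhibitor mice only R2, at 3.17, lay just outside that range. The median over all 11 Snrp genes was 0.43, with 6 above 0 and 5 below, and it ranged from 0.26 without R1 and 0.28 without V2 to 0.66 without V3.

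Of the 13 Lsm genes 0 passed the test, and 2 had separate groups. Lsm6 belongs to both Lsm rings, the nuclear one on U6 and the cytoplasmic one that promotes mRNA decay. It measured 6.28, 5.95, 6.29 and 6.11 in R1 to R4 and 4.42, 4.73 and 5.64 in V2 to V4. Its log2 fold change of 1.23 (SE 0.27, 2.34-fold) was larger than that of Snrpb2, but the vehicle mice were more spread, and the adjusted p was 0.0515. V4 was the highest of the vehicle mice here too, and without it the log2 fold change was 1.59 with an adjusted p of 0.0124. Without R1, R2, R3 or R4 the adjusted p of Lsm6 was 0.060, 0.101, 0.139 and 0.111. Lsm3 measured between 3.90 and 4.53 with the inhibitor and between 3.12 and 3.79 with vehicle (0.78, adjusted p = 0.107). Lsm5 had 1.10 (SE 0.36, adjusted p = 0.163), with R2 at 2.91 below V3 at 3.29. The other ring subunits were closer to 0, from -0.27 for Lsm4 to 0.18 for Lsm8, the subunit particular to the nuclear ring by known biology. Lsm1, its counterpart in the cytoplasmic ring, had -0.38 (SE 0.27). The median was 0.18 over Lsm2 to Lsm8 and 0.14 over the other 6 Lsm genes. Over all 13 it was 0.18, but it was -0.02 without R1, 0.09 without V2 and 0.31 without V4.

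None of the genes of 3′ splice site and branch point recognition passed the test. U2af2, the large U2AF subunit that binds the polypyrimidine tract, had the lowest log2 fold change of all 76 members. It measured 5.76, 4.48, 5.20 and 4.46 in R1 to R4 and 5.35, 5.94 and 6.46 in V2 to V4, a log2 fold change of -0.94 (SE 0.36, adjusted p = 0.239), and R1 exceeded V2. U2af1, the small subunit that reads the AG at the intron end, had -0.22 (SE 0.24). In the SF3 complexes the members pointed both ways. Sf3b6, whose product contacts the branch point adenosine, measured 7.53, 7.32, 7.29 and 7.50 in R1 to R4 and 5.55, 6.60 and 6.74 in V2 to V4. The inhibitor mice lay above all vehicle mice, and the log2 fold change was 1.11 (SE 0.27, adjusted p = 0.0666). Sf3b1, the scaffold of the complex, had 0.63 (SE 0.24, adjusted p = 0.231).

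Sf3b2 was the only member with separate groups in the lower direction. It measured 3.32, 3.38, 3.39 and 3.41 in R1 to R4 and 3.99, 3.52 and 3.94 in V2 to V4, and the inhibitor mice were almost identical to each other (SD 0.04). The log2 fold change was -0.44 (SE 0.16, adjusted p = 0.208). Sf3a1, which anchors SF3A to the U2 particle, had -0.63 (SE 0.33, adjusted p = 0.426), and Sf3b3, Sf3b4, Sf3b5 and Sf3a2 lay between -0.10 and 0.12. The median was -0.08 over the 9 SF3 genes, at 0.12 for SF3A and -0.09 for SF3B, so that it was close to 0. It was above 0 without R2 (0.06), R3 (0.03), V3 (0.11) or V4 (0.13), and it was -0.04 without R4 and -0.03 without V2.

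Beyond Prpf39, the 12 Prpf genes had 1 further member with separate groups. Prpf38b is a relative of the PRP38 protein that acts in spliceosome activation. It measured 7.58, 8.34, 8.69 and 7.91 in R1 to R4 and 6.92, 6.83 and 7.30 in V2 to V4, a log2 fold change of 1.12 (SE 0.26, adjusted p = 0.0622). R1 was the inhibitor mouse nearest to the vehicle mice, and without it Prpf38b had 1.30 with an adjusted p of 0.0193. That fit called 4.68% of all transcript clusters. Without R2, R3 or R4 the adjusted p of Prpf38b was 0.151, 0.134 and 0.110. Prpf18, a factor of the second catalytic step, had 0.59 (adjusted p = 0.297). Components of the tri-snRNP, the U4/U6 and U5 assembly that enters as the spliceosome matures, were not called in either direction. They had 0.30 for Prpf8, which holds the catalytic centre, 0.06 for Prpf6, -0.05 for Prpf3, -0.00 for Prpf4 and -0.47 for Prpf31. Prpf19, a ubiquitin ligase of the catalytic spliceosome, had -0.49 (SE 0.19, adjusted p = 0.246). The levels of Prpf4 and Prpf40b were below the median level of all transcript clusters, so that little can be read from them. The family median was 0.18, with 0.09 without R4, 0.11 without V2, 0.10 without V3 and 0.31 without V4.

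Of the 10 Srsf genes 0 passed the test and 8 had a log2 fold change above 0, with a median of 0.16. The median was 0.03 without V2, 0.11 without V3, 0.10 without R1 and 0.09 without R4. Srsf2 and Srsf5 were just outside the threshold. Srsf2, which binds exonic enhancers, measured 6.39, 6.00, 6.55 and 6.44 in R1 to R4 and 5.21, 5.57 and 5.76 in V2 to V4. Srsf5 measured 8.07, 8.37, 8.14 and 8.23 against 7.48, 7.04 and 7.70. For both genes every inhibitor mouse was above every vehicle mouse, and the log2 fold changes were 0.83 (SE 0.19, adjusted p = 0.0589) and 0.80 (SE 0.18, adjusted p = 0.0593). Without V4, Srsf5 had 0.94 with an adjusted p of 0.0482. Without R1, R2, R3 or R4 the adjusted p of Srsf5 was 0.053, 0.143, 0.136 and 0.131. Srsf1, the SR protein also known as SF2, measured between 6.89 and 7.17 with the inhibitor and between 6.82 and 7.12 with vehicle. Its log2 fold change was 0.02 with a 95% interval of -0.31 to 0.35. Srsf4 had the lowest value of the family, -0.49 (SE 0.25, adjusted p = 0.429).

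The 19 Hnrnp genes had a median of 0.22, with 13 above 0, 6 below and 0 past the test. The median was 0.06 without V2 and 0.41 without V4. Hnrnpdl was the only one with separate groups, at 6.87 to 7.49 with the inhibitor and 6.32 to 6.67 with vehicle (0.66, SE 0.19, adjusted p = 0.110). Its paralogue Hnrnpd, which binds AU-rich elements of unstable mRNAs, had 0.84 (SE 0.29, adjusted p = 0.190), and Hnrnpu, a nuclear scaffold protein, had 0.83 (SE 0.27, adjusted p = 0.164). In both the highest vehicle mouse, V4, exceeded R1. Hnrnpa2b1 had 0.51 (SE 0.21, adjusted p = 0.291).

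Hnrnpll, a regulator of exon choice in the CD45 transcript of lymphocytes, had the lowest log2 fold change of the Hnrnp genes. It measured 4.95, 4.36, 3.84 and 3.83 in R1 to R4 and 5.52, 5.13 and 4.89 in V2 to V4. Only R1 reached into the vehicle range, just above V4, and the log2 fold change was -0.94 (SE 0.29, adjusted p = 0.138). Without R1 it was -1.17 with an adjusted p of 0.0250, in a fit that called 4.68% of all transcript clusters. Without R2, R3 or R4 the adjusted p of Hnrnpll was 0.224, 0.292 and 0.283. Hnrnpul1 had -0.79 (SE 0.33, adjusted p = 0.298). The genes Hnrnpf (-0.02), Hnrnpm (-0.07) and Hnrnpa0 (-0.07) were close to 0, while Hnrnpm in particular was tight in the inhibitor mice (SD 0.05) and spread in the vehicle mice (SD 0.59).

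**Figure D2:**
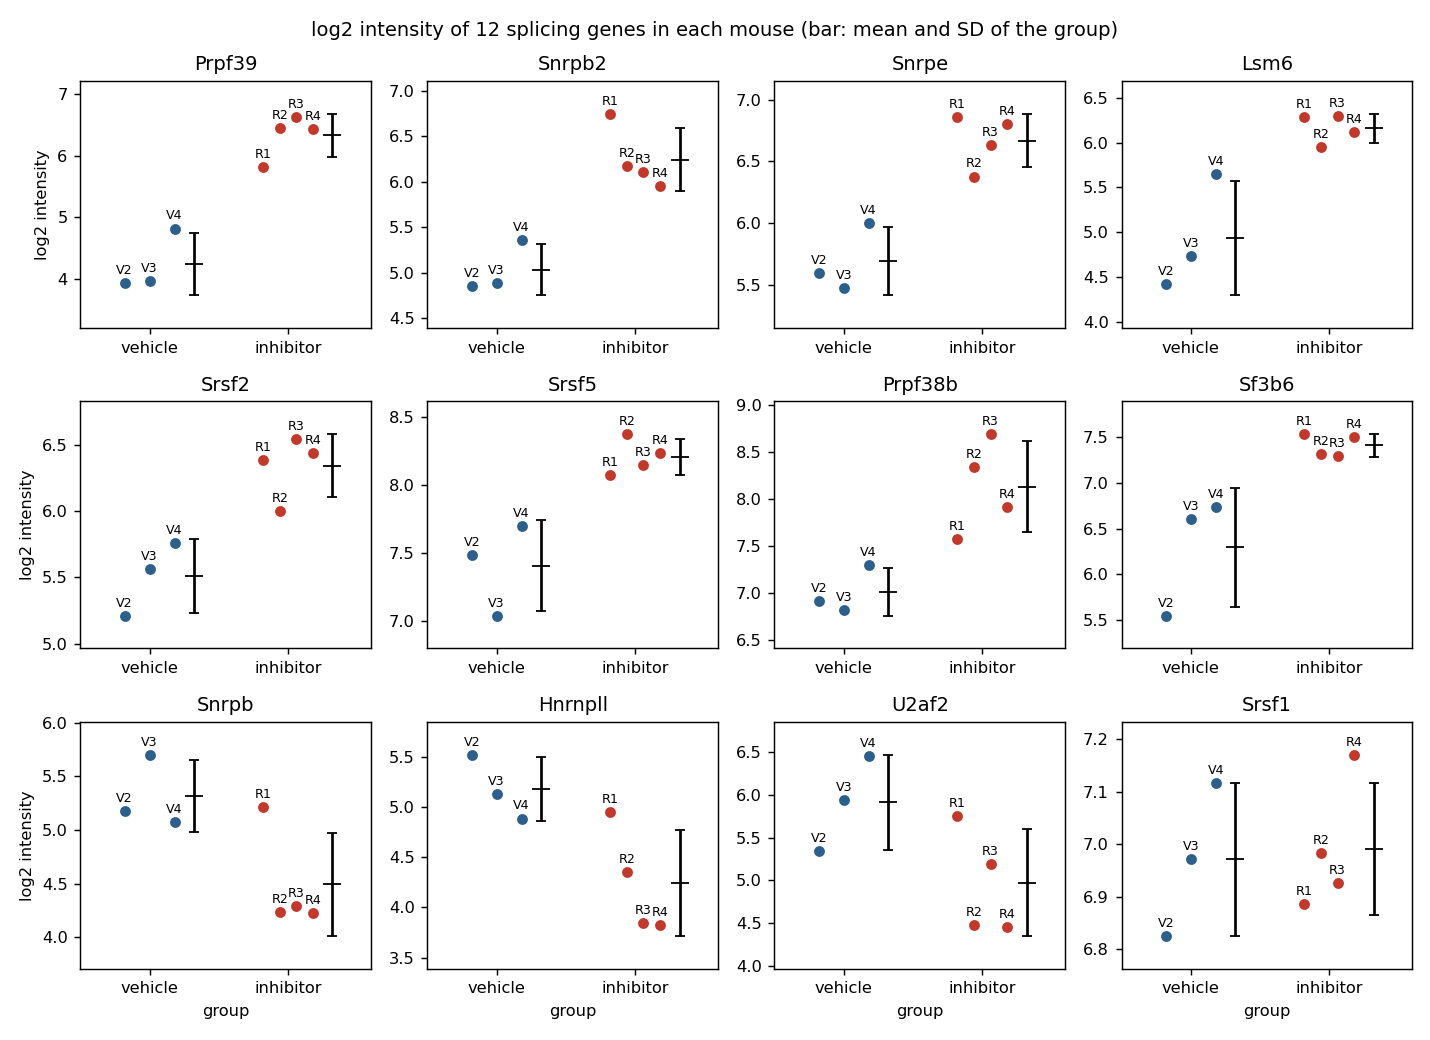
Log2 intensity of 12 splicing genes in each mouse (points) with the group mean and SD, for the inhibitor (R1 to R4) and vehicle (V2 to V4). The 12 genes were picked after their values were seen and include the 3 that rose, 5 just outside the threshold, Snrpb, Hnrnpll and U2af2 with lower means, and Srsf1 with a log2 fold change of 0.02.

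The mice differed within each group in how high the splicing genes were as a whole. Relative to the vehicle mean of each gene, the mean over the 76 members was 0.32 in R1, 0.03 in R2, 0.33 in R3 and 0.19 in R4, and -0.26 in V2, -0.01 in V3 and 0.27 in V4. The groups overlapped, because V4 stood above R2 and R4. Without the 3 called genes the means were 0.27, -0.02, 0.28 and 0.13 in R1 to R4 and -0.26, -0.01 and 0.26 in V2 to V4. In the brightest 25% of transcript clusters V4 had the highest mean of all mice, at 0.16, beside 0.08 in R1, -0.05 in R2, 0.06 in R3 and -0.10 in R4.

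The means overlapped between the groups in all 7 families, with different mice at the edges. The Snrp mean was highest in R1 (0.66) and lowest in V2 (-0.40), while R2 at 0.04 was below V3 at 0.25. The Lsm mean likewise ran from 0.47 in R1 to -0.01 in R2 and -0.32 in V2. For Prpf genes R3 (0.56) and R4 (0.40) were highest, above V4 at 0.24. The Srsf means came closest to a separation, with the lowest inhibitor mouse at 0.11 and the highest vehicle mouse at 0.13. The Hnrnp mean was 0.36 in both R3 and V4, and the U2af mean was lowest in R4, closely followed by R2 at -0.99. Among the 23 members with a log2 fold change above 0.5, the vehicle mouse nearest to the inhibitor group was V4 in 18 and V3 in 5. The inhibitor mouse nearest to the vehicle group was R2 in 10, R1 in 9, R4 in 3 and R3 in 1. Among the 6 members below -0.5 it was R1 in 4 and R3 in 2.

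**Figure D3:**
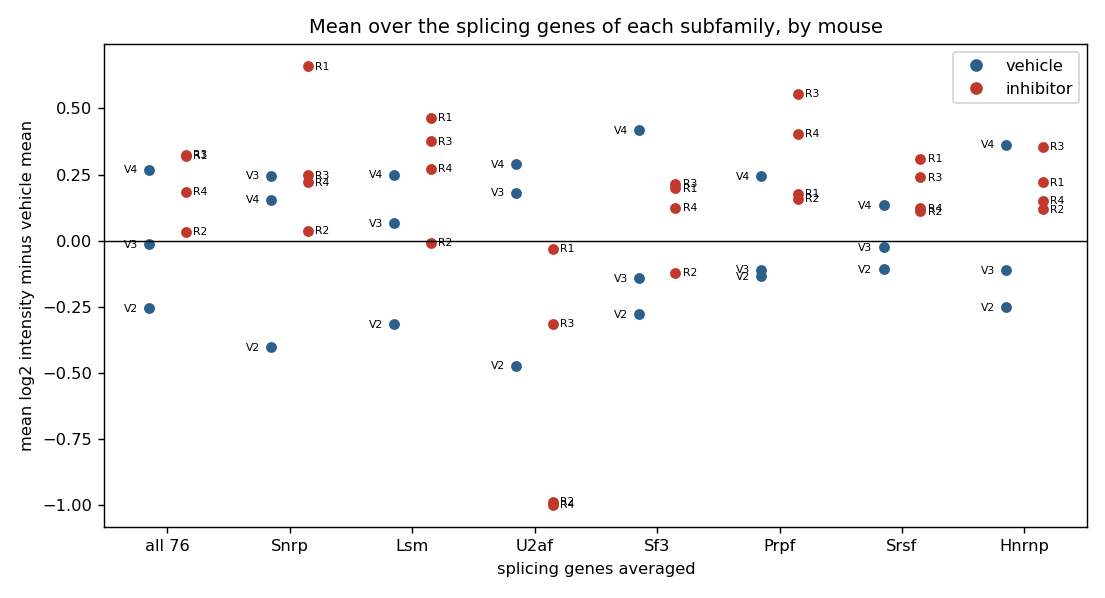
Mean of the splicing genes in each mouse by family, as log2 intensity minus the vehicle mean of each gene (points, one per mouse). Inhibitor and vehicle mice overlap in every family, and V2 is low while V4 is high among the vehicle mice for Lsm, Sf3 and Hnrnp genes.

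**Figure D4:**
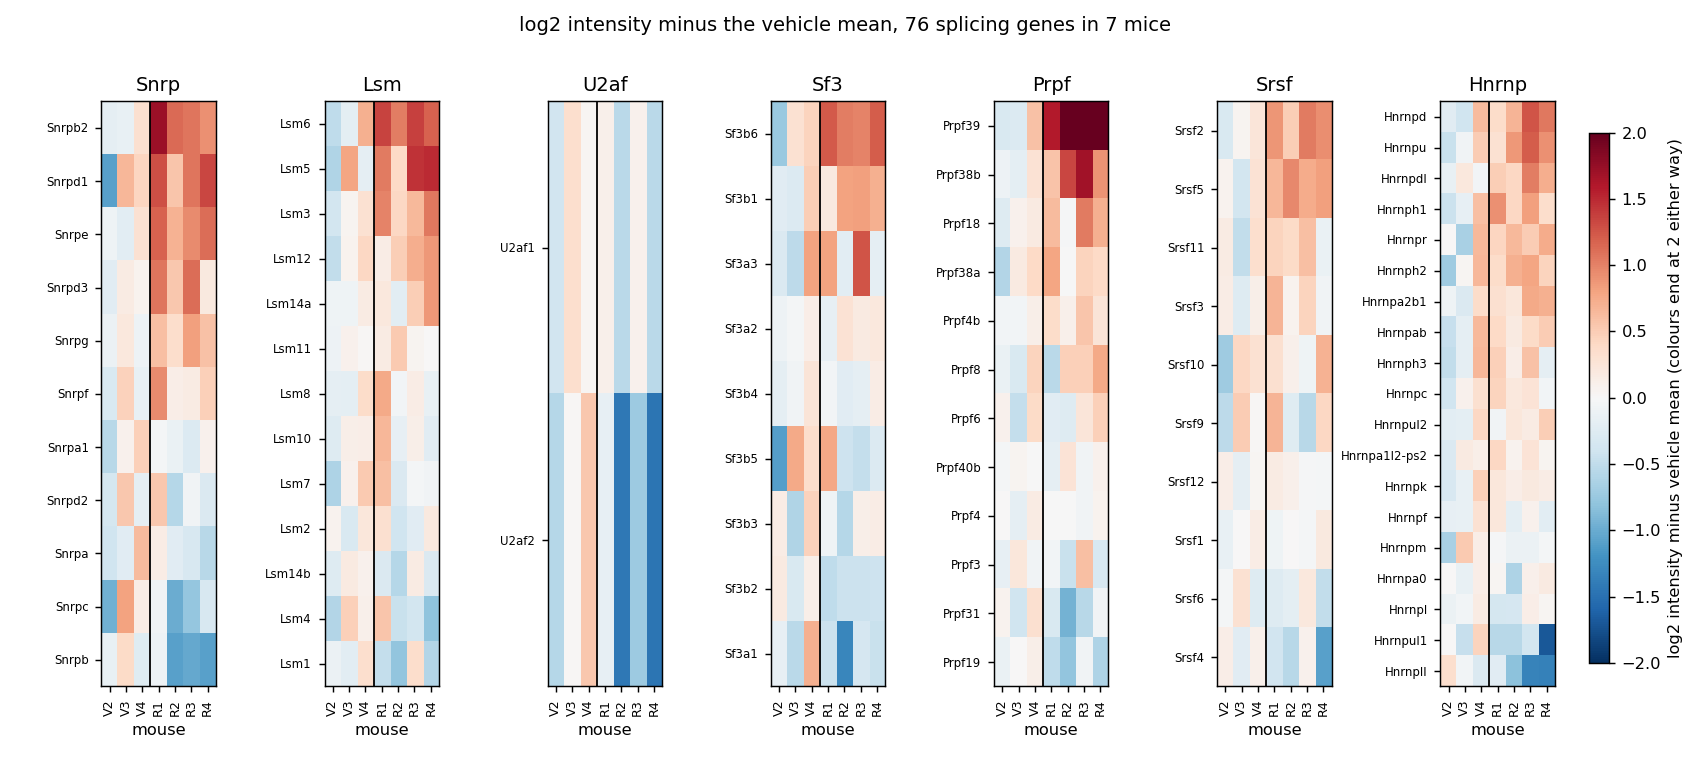
Log2 intensity minus the vehicle mean for each of the 76 splicing genes (rows, by family) in each of the 7 mice (columns), with red above and blue below 0 and the colours ending at 2 either way. Prpf39 is high in all 4 inhibitor mice, while many other genes are high in V4 as well as in the inhibitor mice.

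The other genes of the splicing pathway, taken from 8 lists by complex and function, had calls in both directions. Of 154 listed genes 142 were measured, 8 rose and 4 fell. The share called was 8.45%, close to the 7.7% of the brightest 25% of transcript clusters and above the 2.23% of all of them. Of the 142 genes, 79 were above 0 and 63 below, and the median was 0.07. SR-related proteins and SR protein kinases had the highest median, 0.62, with 3 of 16 past the test and 13 above 0. Clk4 and Clk1, kinases that phosphorylate SR proteins, rose together with Tra2a, an SR-like splicing activator. Clk4 measured 6.88, 7.44, 7.46 and 7.38 in R1 to R4 and 5.71, 5.70 and 6.04 in V2 to V4 (log2 fold change 1.47, SE 0.19, adjusted p = 0.0178). Clk1 was 2.62-fold higher (1.39, SE 0.21, adjusted p = 0.0210) and Tra2a 2.74-fold higher (1.45, SE 0.26, adjusted p = 0.0284). In all 3 genes each inhibitor mouse was above each vehicle mouse, which adds nothing to the test that picked them.

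Of the 15 other U1, U2 and branch site genes 2 rose. They were Luc7l3, a U1-associated protein like the Prpf39 product (1.30, SE 0.25, adjusted p = 0.0374), and Dnajc8, a spliceosome-associated J-domain protein (1.27, SE 0.26, adjusted p = 0.0453). The minor spliceosome, which removes a rare class of introns, had 1 gene in each direction. Rnpc3, its U11/U12 65K protein, rose (1.27, SE 0.18, adjusted p = 0.0181), and Zmat5, the U11/U12 20K protein, fell by 0.94 (SE 0.19, adjusted p = 0.0412). Of the 24 genes of the Prp19 complex and the catalytic steps, Cwc15 rose (1.12, SE 0.21, adjusted p = 0.0325) and Aqr, an intron-binding helicase, fell by 0.87 (SE 0.16, adjusted p = 0.0313).

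The snRNP assembly list also had calls in opposite directions. Ssb, the La protein that binds the 3′ ends of new RNA polymerase III transcripts, measured 9.18, 9.39, 9.64 and 9.96 in R1 to R4 and 6.83, 7.52 and 8.05 in V2 to V4. That was a 4.22-fold difference (log2 fold change 2.08, SE 0.29, adjusted p = 0.0181). Wdr77, the partner of the methyltransferase that modifies Sm proteins, measured 3.21, 3.13, 3.35 and 2.83 against 4.96, 4.24 and 4.28 (-1.37, SE 0.21, adjusted p = 0.0223). Rnps1, a protein of the exon junction complex, fell by 1.30 (SE 0.20, adjusted p = 0.0209) and was the only call among 14 genes of that complex and of mRNA export. The 13 other tri-snRNP genes had no call and the lowest median, -0.31, with 10 below 0. In this list Snrnp200, the helicase that unwinds U4 from U6, had -0.99 (SE 0.22, adjusted p = 0.0547). None of 36 other RNA-binding regulators of splicing passed the test, and their median was 0.17.

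**Figure D5:**
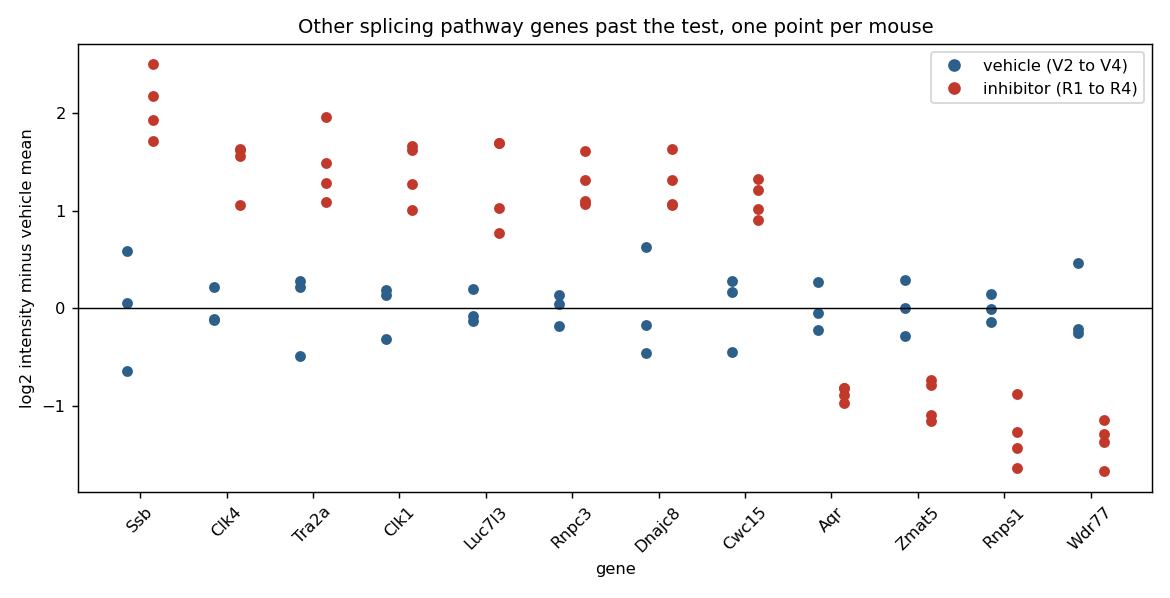
The 12 other splicing pathway genes past the test, as log2 intensity minus the vehicle mean of each gene, with 1 point per mouse. In each of the 12 genes the 4 inhibitor mice are separate from the 3 vehicle mice, above them in 8 genes and below them in 4. The genes were picked for passing the test, so the separation adds nothing to it.

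The calls for the pathway genes were lost in the same fits as those of the members, where few transcript clusters were called at all. Without R2, R3, R4, V2 or V3, 0 of the 142 passed, in fits that called 2 to 34 of all 22139 transcript clusters. Without R1 or V4, 12 and 16 rose and 8 and 5 fell. Those fits called 4.68% and 2.41% of all transcript clusters.

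The sorted cells carried the markers of the gate, of the neutrophil lineage and of inflammatory monocytes. The mean log2 intensity of Itgam and Ptprc was 8.82 to 9.81 over all arrays, and that of 11 mature neutrophil genes 8.11 to 8.91. Lists for T, B and NK cells and for stromal reticular cells, the type that a description field of the labels names in conflict with the others, lay between 1.54 and 2.38. The median of all transcript clusters was 2.14 to 2.19 per array. The 6 eosinophil genes measured had list means of 4.33, 2.76, 3.86 and 3.20 in R1 to R4. In V2 to V4 these means were 4.06, 3.94 and 4.30. All 6 eosinophil genes had a log2 fold change below 0, and 0 were called. Within the myeloid cells, some markers of maturation differed between the groups and others did not. Of 8 primary granule genes, made early in neutrophil development, 4 fell, and the list mean was 5.00 to 6.14 with the inhibitor and 6.56 to 6.97 with vehicle. Of 9 secondary granule genes 3 fell, of the mature neutrophil genes 3 rose, and of 8 inflammatory monocyte genes 2 rose. Of 18 cell cycle genes 2 fell, with list means of 5.14 to 5.84 and 5.66 to 6.26, and of 58 ribosomal protein genes 1 rose, with a median of 0.29. In the order given, these lists had 50%, 33.3%, 27.3%, 25%, 11.1% and 1.72% of their genes called. The share was 2.23% over all transcript clusters and 7.7% over the brightest 25%. The part of these shifts in the splicing gene values was not tested, and in bulk samples fewer cells of a type and less RNA per cell cannot be told apart.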

How the data were processed

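RNA of the sorted cells was labelled with a 3′ IVT Pico kit and hybridised to Clariom S Mouse arrays, 1 per mouse. The authors normalized the arrays by RMA, summarised probes per gene and deposited log2 intensities. For oligo and RMA no version, and for the array annotation no genome build, is given in the sources used here. The labels and the methods name different RNA isolation kits. Arrays give no read depth, so the number of mice limits the precision.

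The 22139 transcript clusters entered a two-sided test of inhibitor against vehicle in limma (version 3.58.1, under R 4.3.3) with lmFit and default eBayes and without covariates. Benjamini-Hochberg adjustment ran over all of them, and an adjusted p under 0.05 counted as a call. The other 64 rows of the table entered 1 alternative. All 76 members were matched to GRCm38.p6 by Entrez ID. On simulated data with these 7 arrays' spread, 49 of 100 genes changed by a log2 fold change of 1 and 87 of 100 changed by 2 were called, with 5 unchanged genes called. The changed genes were drawn from all transcript clusters, whose median SD within groups was 0.254, against 0.375 for the members. The simulated noise was independent from gene to gene, so these counts do not give the recovery for the splicing genes. The members and the lists of pathway and marker genes were chosen with earlier results of these data known. Genes named were those past the threshold and, in each family, the 3 with the smallest p, the highest, the lowest and the brightest. Others were named after their values were seen, such as further subunits of a complex. Families were described by counts and medians. Alternatives changed the variance model, array weights, normalization, filter on dim rows, rows tested, replicate block and arrays left out.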

Additional observations from a re-analysis of the deposited data

Results flagged for a closer look

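A single inhibitor mouse stood far from the other 3 in 4 of the 39 genes looked at, in that Dixon's ratio of the gap to the range was above its 95% critical value for 4 samples. R1 stood apart in 3 of them. The ratio was 0.93 for Snrpb, where R1 measured 5.21 and the other inhibitor mice 4.22 to 4.29. It was 0.874 for Clk4, where R1 measured 6.88 and the others 7.38 to 7.46, and 0.831 for Sf3b1, with R1 at 7.26. For Sf3a1 the ratio was 0.878 and R2 was the low mouse, at 3.28. Over all 76 splicing genes 6 had such a mouse. Chance gives this in about 1 in 20 groups, and none of the 17 family and set means per mouse had one.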

How the results depend on the processing

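With 4 and 3 mice, calls depended on single arrays. Leaving out each array in turn gave 0 to 5 members higher and 0 to 2 lower, and 0 to 16 pathway genes higher and 0 to 8 lower. Over all transcript clusters, 494 were called with every array, 2 without R2, R4 or V2, 4 without R3, 34 without V3, 534 without V4 and 1035 without R1. The members higher numbered 5 with array weights, cyclic loess or quantile normalization applied again, and 6 without the dimmest 25% of rows. With trended and robust variance Snrpe was not called (adjusted p = 0.0620) and 4 others were. Pathway genes lower numbered 2 with cyclic loess and 2 with quantile normalization applied again. The gap between the lowest inhibitor and the highest vehicle mean over the members was -0.24 as deposited, -0.055 with cyclic loess and -0.063 with quantile normalization applied again, so the groups overlapped in each.

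The deviations of same-numbered mice from their group means had correlations of 0.10, -0.13 and -0.03. So few mice cannot decide whether they were paired, and the labels give only a shared number. The replicate block, in which R1 has no partner, gave 5 members higher, 2 lower and 17 pathway genes higher. Of 459 log2 fold changes of 27 named members under 17 alternatives, 423 kept their side of the threshold, 16 lost and 20 gained a call. The sign changed in 2 of the 423, both for Snrpd2, which was not called, and 0 called values changed sign. The causes of these differences were not tested.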
